A study of Xenopus laevis with 18 samples.

Results

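Whole embryos of Xenopus laevis, the African clawed frog, were compared between the early tailbud (Nieuwkoop-Faber stages 23 and 26) and the late neurula (stages 18 and 20). These 4 libraries were chosen by their labelled stage from a course of 18, each a single poly(A)-selected library of a different stage. All embryos were of the J strain, a laboratory line, and the labels give no treatment beyond culture in a dilute saline with gentamycin and no genetic change. A library stands for 1 stage, so the 2 libraries of a group are neighbouring time points and not repeats of one. The sources used here do not say how many embryos or clutches went into each.

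In the late neurula the neural folds meet and fuse into the neural tube, the forerunner of the brain and spinal cord. In the early tailbud the body lengthens, the segmented muscle blocks differentiate along the axis and the first organ rudiments take shape. The embryo does not yet feed and lives on yolk, and its RNA is a mixture of messages laid down in the egg (maternal) and messages made since its own genome became active (zygotic). In whole embryos, a change in the number of cells that carry an RNA and a change in its amount per cell cannot be told apart.

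The deposited values are TPM, a share of all transcripts of a library, for 31357 gene models known by the authors' own identifiers, and 0 of these identifiers matched the reference table of gene names. Models are therefore described in groups, by level, size of change and course, and the 4 named ones by identifier. Spike-in rows were dropped and each library was rescaled to 1000000. A model entered the test if it reached 5 TPM in 2 or more of the 4 libraries, which 14123 did. Changes are differences of log2(TPM + 1) between group means, so 1 on this scale is 2-fold, and the change of low models is understated.

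The libraries differed in how many models were detected, and sequencing depth cannot be read from TPM. Models listed at 0 numbered 5790 and 4817 at stages 23 and 26, against 9322 and 6491 at stages 18 and 20. Stage 18 is also the only one of the 4 whose column lacks the ending rr, for which no label gives a meaning. Spike-ins made up 3.61% and 2.24% of the deposited total at stages 23 and 26, against 5.51% and 3.15% at stages 18 and 20. The part of these differences in the results was not tested; values against stage 20 alone, whose column has that ending, are given beside the counts.

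Between the late neurula and the early tailbud the RNA of the embryo changed in both directions, and among the models that passed the median rise was larger than the median fall. In limma's moderated test over the 8 neurula and tailbud libraries, 3556 of 14123 models (25.2%) passed a Benjamini-Hochberg adjusted p of 0.05. Of these, 1745 (12.4% of those tested) were higher in the early tailbud and 1811 (12.8%) lower. The median change of the higher models was 1.39 on the log2 scale, and 449 of them (25.7%) moved by less than 2-fold. The median of the lower models was -0.87, and 1151 of them (63.6%) moved by less than 2-fold. Over all models tested the median change was -0.04, and 7663 models (54.3%) lay within 0.5 of no change. Some models could be tested only because they differed: 959 reached 5 TPM in the early tailbud libraries only and 426 in the late neurula libraries only. How far they shape these counts and medians was not tested.

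Single libraries moved this count: leaving out stage 26 gave 224 models, leaving out stage 18 gave 1015 and leaving out stage 23 gave 1654. The balance of direction turned on the scaling and also moved with other settings. Higher models were 49.1% of those that passed here and 61.2% after median-of-ratios scaling (2186 higher and 1383 lower). They were 94.4% after scaling to the spike-ins (850 and 50), which shifts the median of all models to 0.49. With the scaling kept, they were 84.9% in a fit of all 18 libraries and 58.8% with a filter of 1 TPM. With 0.1 in place of 1 added before the logarithm they were 45.5%.

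A separate rule, consistent change, carries no p-value. This rule asked that both early tailbud libraries lie above, or both below, both late neurula libraries, with mean values at least 2-fold apart. It was met by 2317 models (16.4% of those tested), 1582 upward (11.2%) and 735 downward (5.2%). Spike-in RNAs, scaled to their own sum in each library, served as a measure of technical error: of the 32 that averaged 10 TPM or more and had no zero, 0 met it in either direction. Their differences ran from -0.28 to 0.68. Chosen in this way, they give no measure of error for models at lower levels or listed at 0 in a library. Most of the consistent models also passed limma: 1296 upward and 660 downward, which are the rising and the falling models described in what follows, while 286 and 75 did not pass. Against stage 20 alone, 1055 models were consistently higher and 675 lower. After scaling to the spike-ins 3289 were consistently higher and 258 lower, while with 5 in place of 1 added before the logarithm the counts were 911 and 414.

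**Figure D1:**
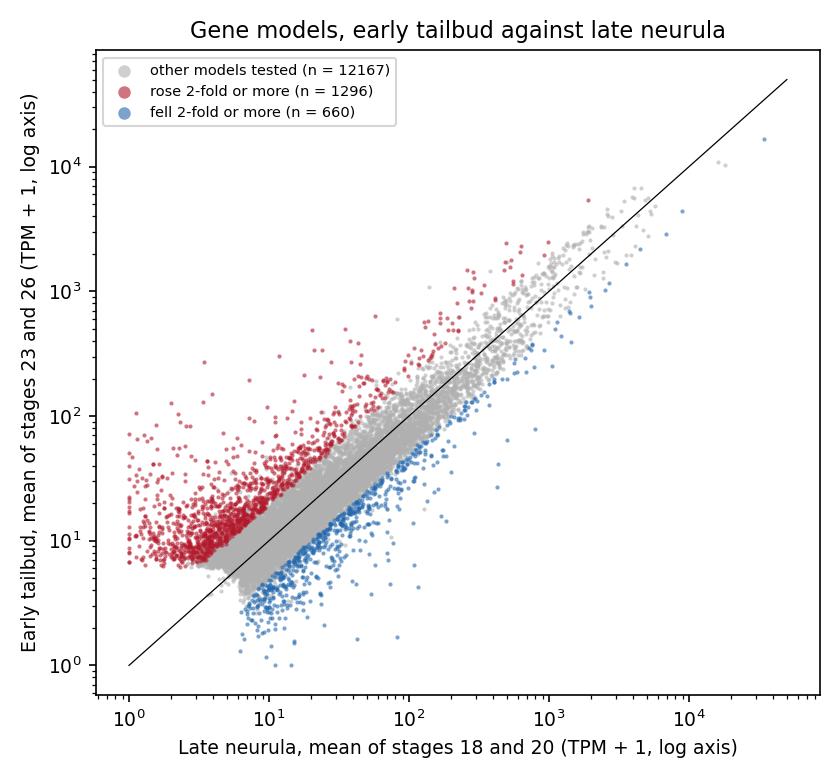
Each point is 1 gene model, with its mean TPM + 1 in the early tailbud (vertical) against its mean in the late neurula (horizontal), both on log axes; the line marks equal levels. The 1296 rising models (red) reach far to the left, where the late neurula is near 0, while the 660 falling models (blue) lie closer to the line.

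The rises and falls differed in size. Of the 1296 rising models, 434 (33.5%) rose at least 4-fold, and 151 changed by 3 or more and 57 by 4 or more on the log2 scale. Of the 660 falling models, 110 (16.7%) fell at least 4-fold, 22 changed by 3 or more and 4 by 4 or more. The median was 1.67 for the rising and -1.32 for the falling models. For the rising models the median absolute difference was 0.31 between the early tailbud stages and 0.77 between the late neurula stages. For the falling models it was 0.39 and 0.32. Over all models tested it was 0.20 and 0.29, against 0.45 between the group means. The rising and the falling models were chosen to differ between the groups, so their smaller differences within a group are given as a description. The rule that at least 2 libraries hold 5 TPM shapes these sets. Some 555 of the rising models reached 5 TPM in the early tailbud libraries only, and 177 of the falling models in the late neurula libraries only. A model tested for that reason had to differ. Among models that averaged 10 TPM or more over the 4 libraries, 236 of 713 rising models (33.1%) and 68 of 473 falling models (14.4%) changed at least 4-fold. With 5 TPM or more in all 4 libraries these were 62 of 456 (13.6%) and 27 of 417 (6.47%), with medians of 1.38 and -1.22.

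The 4 named models are those with the largest rises and falls among models that passed limma, changed consistently and averaged at least 10 TPM in the higher group. XeXenL6RMv10043094m stood at 158 and 379 TPM at stages 23 and 26, against 0 and 4.84 TPM at stages 18 and 20. It had 1.23 TPM at stage 0 and was listed at 0 in every library from stage 2 to stage 18. Stages 30 and 33 had 862 and 1185 TPM. The libraries in which it was above 0, at stages 0, 20, 23, 26, 30 and 33, are those whose columns end in rr. Its rise was 6.67 ± 0.72 on the log2 scale (SE, limma adjusted p = 0.00247).

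XeXenL6RMv10032947m came up later within the same window. It stood at 31.3 and 177 TPM at stages 23 and 26, against 0 and 0.25 TPM at stages 18 and 20, so that on the log2 scale its early tailbud libraries lie further apart than those of the first model. Stages 30 and 33 had 807 and 1656 TPM. This model had 1.52 TPM at stage 0 and was listed at 0 in every library from stage 2 to stage 18. Like the first model, it was above 0 only in libraries whose columns end in rr. The rise was 6.09 ± 0.68 on the log2 scale (SE, limma adjusted p = 0.00265).

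XeXenL6RMv10041136m was at its highest at the end of gastrulation and nearly gone in the tailbud. It stood at 1.09 and 0.27 TPM at stages 23 and 26, against 125 and 36.4 TPM at stages 18 and 20. Its values were already lower than at stage 12 before the window: stages 12, 14 and 16 had 475, 186 and 274 TPM, and the model was listed at 0 at stages 30 and 33. Its fall was -5.40 ± 0.51 on the log2 scale (SE, limma adjusted p = 0.00178).

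XeXenL6RMv10023732m, in contrast, had like values at stages 16, 18 and 20. It stood at 6.27 and 0.65 TPM at stages 23 and 26, against 72.2 and 72.9 TPM at stages 18 and 20. Up to stage 10 no library held more than 0.37 TPM; it had 13.7, 45.7 and 63.2 TPM at stages 12, 14 and 16, and 0.15 and 0.54 TPM at stages 30 and 33. Its fall was -4.41 ± 0.57 on the log2 scale (SE, limma adjusted p = 0.00369). XeXenL6RMv10043094m and XeXenL6RMv10032947m reached 5 TPM in the early tailbud libraries only, and XeXenL6RMv10041136m in the late neurula libraries only. Being tested for that reason, they had to differ, so their p-values and alternative fits are given as a description. The naming rule itself keeps the groups of these 4 models from overlapping. Each passed in all 21 alternative fits, with limma adjusted p of at most 0.0331 in any.

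**Figure D2:**
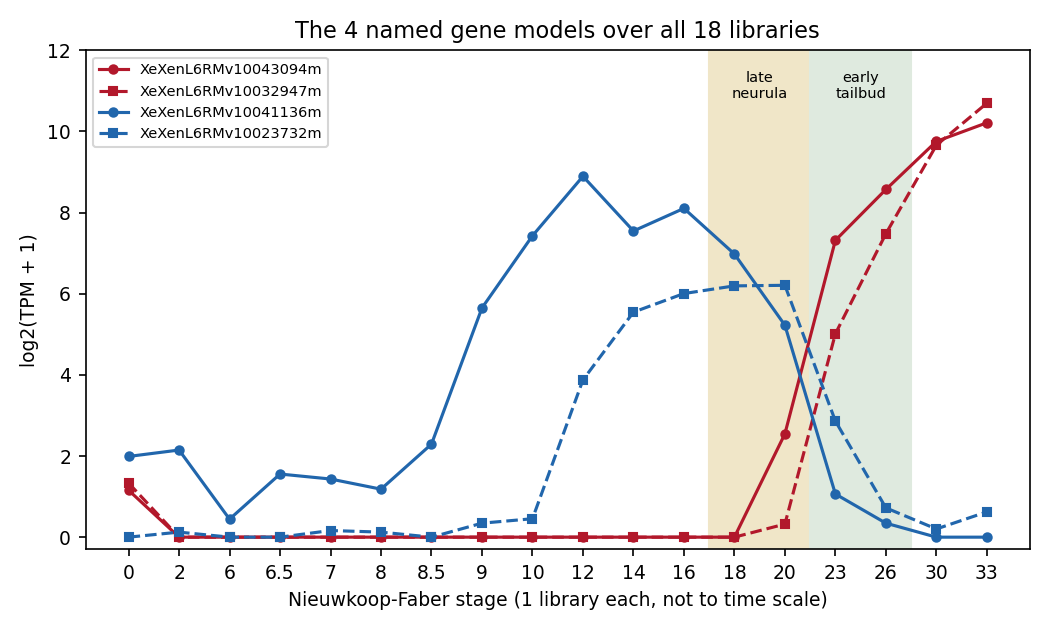
log2(TPM + 1) of the 4 named models in each of the 18 libraries in stage order, with the late neurula and early tailbud shaded; red lines rose and blue lines fell. Both risers are above 0 at stage 0, at 0 from stage 2 to stage 18 and above 0 again from stage 20. Of the fallers 1 is highest at stage 12 while the other stays near its top until stage 20.

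The models are next described by their level in the late neurula, which the filter in part sets. By their mean level at stages 18 and 20, 785 of the 1296 rising models (60.6%) lay between 1 and 10 TPM, 309 (23.8%) between 10 and 100 TPM and 58 (4.48%) at 100 TPM or more. Of all models tested, 33.3%, 54.8% and 10.8% lay in these classes. The remaining 144 rising models were under 1 TPM; they are all the tested models of that class, each of which was tested because of its tailbud level, as were 411 of the 785 between 1 and 10 TPM. Of the 660 falling models, 96 (14.5%) lay between 1 and 10 TPM, all tested because of their late neurula level, 440 (66.7%) between 10 and 100 TPM and 124 (18.8%) at 100 TPM or more. At 100 TPM or more, 8.11% of the models tested fell and 3.79% rose. The median change of the classes, from the lowest level to the highest, was 3.13, 0.32, -0.19 and -0.28. The classes are cut on stages 18 and 20, whose values also enter the change. Level and change are therefore not independent, and these shares are given as a description.

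Some models were near 0 in one group; each of these could be tested only through its level in the other, so their change was fixed by the filter and they are given as a description. Among the rising models, 97 were under 1 TPM at both late neurula stages; their medians were 8.20 and 14.0 TPM at stages 23 and 26, and the highest averaged 104 TPM. Of these 97, 79 (81.4%) were also under 1 TPM at each stage up to 7, 89 were under 1 TPM at both stages 14 and 16, and 82 were at 5 TPM or more at both stages 30 and 33. Of the 97, 19 were listed at 0 at both late neurula stages. Of the falling models 9 ended under 1 TPM at both early tailbud stages, with medians of 10.7 and 6.63 TPM at stages 18 and 20. The falling models as a whole were reduced and not emptied: their median was 11.6 and 7.90 TPM at stages 23 and 26, against 33.2 and 25.1 TPM at stages 18 and 20.

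Each library is scaled to a fixed total, so gains and losses summed over all models must balance. Rising models held 8.84% and 10.9% of the total at stages 23 and 26, against 2.28% and 3.68% at stages 18 and 20. Falling models held 5.85% and 4.70% at stages 23 and 26, against 13.4% and 11.3% at stages 18 and 20. The loss was concentrated: the 20 models with the largest losses in TPM made up 62.7% of the summed loss, with single changes between -573 and -17850 TPM. The summed change of the falling models was -70773 TPM, so 1 model alone held a large part of it. The 20 largest gains made up 35.2% of the summed gain, with single gains between 660 and 3462 TPM. These top 20 are taken from 660 falling and 1296 rising models, so the 2 shares are not alike measures. In the early tailbud 151 rising models averaged 100 TPM or more.

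The models differed in whether they were already detected in the poly(A)-selected RNA of the earliest stages. RNA stored without a poly(A) tail would be missed, so a low value there does not show that an RNA was absent from the egg. Maternal models were those that averaged 5 TPM or more over stages 0 and 2, non-maternal ones those under 1 TPM in each library up to stage 7, and the rest lay between. Of the rising models 459 (35.4%) were maternal and 593 (45.8%) non-maternal; of the falling models 353 (53.5%) and 224 (33.9%). Over all models tested 69.5% were maternal and 15.5% non-maternal. Seen from the other side, 27.1% of the non-maternal models rose and 10.2% fell, while 4.68% of the maternal models rose and 3.60% fell. Restricted to models that averaged 10 TPM or more over the 4 libraries, 24.4% of 1180 non-maternal models rose and 12.5% fell, and 4.10% of 7346 maternal models rose and 3.66% fell. The filter bears on these shares. Of the 1296 rising models, 555 reached 5 TPM in the early tailbud libraries only and so had to differ. The restriction to 10 TPM on average can still hold such models. How far the filter accounts for the shares was not tested.

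In poly(A)-selected RNA, the medians of maternal models that rose were high, then low, and then higher again. The choice sets part of this course. Maternal models had to be detected at stages 0 and 2. Rising ones had to be lower at stages 18 and 20 than at stages 23 and 26. A change in amount and a change in poly(A) tail cannot be told apart in these libraries. At stages 0, 9, 12 and 14 the medians of the rising maternal models were 17.7, 33.6, 7.81 and 5.14 TPM. At stages 18, 20, 23 and 26 they were 5.50, 9.17, 19.2 and 23.3 TPM. All maternal models tested also had lower medians after stage 9, with 24.1, 45.9, 19.5 and 18.1 TPM at stages 0, 9, 12 and 14. They had 19.4, 21.2, 19.6 and 19.1 TPM at stages 18, 20, 23 and 26. For non-maternal models that rose, the median was 0 from stage 2 to stage 12 and 0.449 TPM at stage 14, and at stages 18, 20, 23 and 26 it was 1.62, 4, 14.0 and 18.6 TPM. Both sets had similar medians in the tailbud, where the filter and the choice ask each rising model to hold 5 TPM or more at stages 23 and 26. Their unlike levels at the earliest stages follow from how they were defined. Across all 18 libraries, 297 of the 1296 rising models (22.9%) had their highest value at stages 0 to 9 and 618 (47.7%) at stages 30 and 33, against 53.4% and 11.2% of all models tested.

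Falling models were split by the same definitions, which set their unlike levels at the earliest stages. For non-maternal models that fell, stages 10, 12, 14 and 16 had medians of 2.09, 28.9, 29.0 and 28.7 TPM. Stages 18, 20, 23 and 26 had 24.3, 20.6, 8.30 and 5.45 TPM. A plateau from stage 12 to stage 16 was thus followed by a decline. Maternal models that fell had medians of 45.5, 77.2 and 46.6 TPM at stages 0, 9 and 14, and of 39.5, 32.3, 14.9 and 12.7 TPM at stages 18, 20, 23 and 26. Over all falling models the single stage that most often held the highest value was stage 12, in 174 of 660 (26.4%), against 5.42% of all models tested. Values of most models at stages 2, 6, 8.5 and 10 are lowered by a few very abundant models, which bears on the medians and on which stage is highest. The 10 most abundant held 29.9%, 67.3%, 28.1% and 51.2% of the total there, against 12.3% or less at the 4 compared stages. Stage 10 held the highest value in 0.333% of all models tested.

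**Figure D3:**
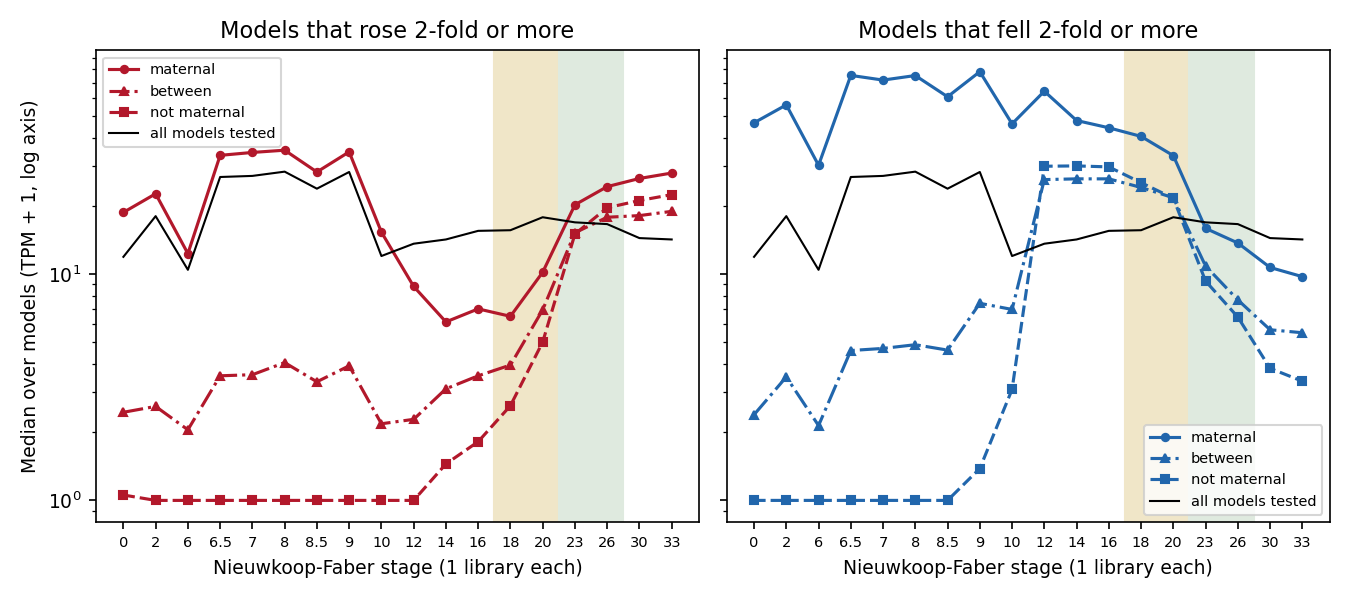
Median TPM + 1 (log axis) of the rising models (left, red) and the falling models (right, blue) in each of the 18 libraries, split into maternal, between and non-maternal, with all models tested in black and the late neurula and early tailbud shaded. The rising sets converge in the tailbud from 5.50 TPM (maternal) and 1.62 TPM (non-maternal) at stage 18, and the non-maternal falling set holds a plateau from stage 12 to stage 16.

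The step from stage 20 to stage 23 held the most models past 2-fold, 1468 of those tested (10.4%), against 1077 (7.63%) and 321 (2.27%) at the steps before and after it. At 2-fold or more, 944 of the models tested were higher and 133 lower at stage 20 than at stage 18, 940 were higher and 528 lower at stage 23 than at stage 20, and 152 were higher and 169 lower at stage 26 than at stage 23. None of the 32 spike-ins passed 2-fold at any of the 3 steps, where their SD was 0.30, 0.28 and 0.28. Their largest changes came near it, at 0.84, 0.93 and 0.88 on the log2 scale. Spearman's rho across the models tested was 0.941, 0.889 and 0.956 over the same steps; models of 1 library are not independent. The stage numbers are not spaced evenly in time, so these are not rates. The filter also favours the middle step. Of the models tested, 959 reached 5 TPM in the early tailbud libraries only and 426 in the late neurula libraries only. Such models had to differ between stages 20 and 23, while models at 5 TPM or more at stage 18 alone or stage 26 alone were not tested. The excess of higher models at the first step coincides with the change of column ending and with the drop in models listed at 0.

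The first step held a larger part of the rises than of the falls. The choice of the sets asks that stages 20 and 23 differ in the set's direction, so the middle step is favoured in both. In 948 of the 1296 rising models (73.1%) the largest of the 3 steps was from stage 20 to 23, in 327 (25.2%) from stage 18 to 20 and in 21 from stage 23 to 26. For the 660 falling models it was 573 (86.8%), 36 (5.45%) and 51 (7.73%). The median step of the rising models was 0.76, 1.16 and 0.27 on the log2 scale in stage order, and that of the falling models -0.27, -1.06 and -0.37. Over all models tested it was 0.17, -0.09 and -0.05, so the first step was upward in general. A difference in timing between the sets cannot be told apart from that shift or from the change of column ending. With stage 20 as the lone neurula library, 926 of the 1296 (71.5%) were at least 2-fold higher and 505 of the 660 (76.5%) at least 2-fold lower. The sets were chosen on these same values, so these shares are given as a description. Of the rising models 114 were listed at 0 at stage 18 and 21 at stage 20.

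**Figure D4:**
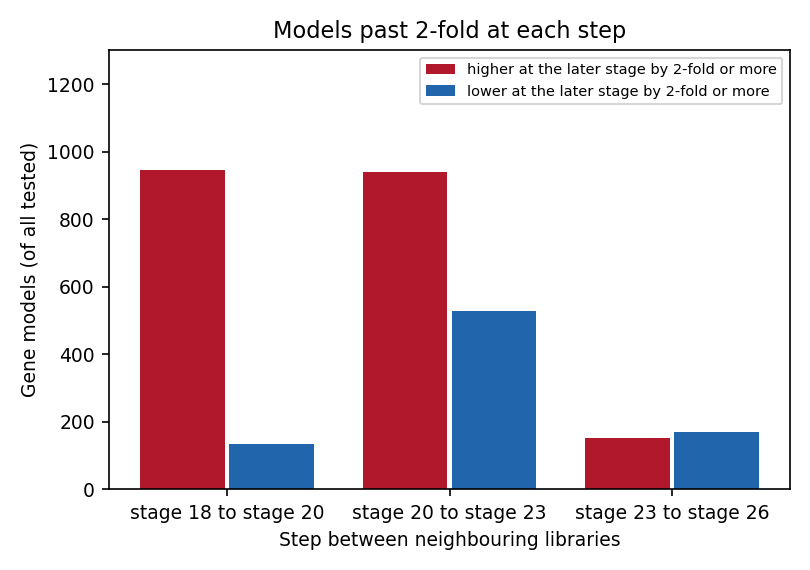
Number of gene models, of the 14123 tested, that were at least 2-fold higher (red) or lower (blue) at the later stage of each step between neighbouring libraries. Higher models number 944, 940 and 152 in stage order and lower models 133, 528 and 169, so the last step is the smallest. The filter on the models tested favours the middle step.

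The neighbouring intervals of the neurula and of the tailbud held fewer of the tested models past the threshold. In the same fit, the late neurula against the early neurula (stages 14 and 16) had 254 models higher (1.8%) and 24 lower (0.17%). The late tailbud (stages 30 and 33) against the early tailbud had 137 higher (0.97%) and 820 lower (5.81%). The models tested were those at 5 TPM or more in 2 or more of the libraries at stages 18 to 26, so models reaching that level at other stages only were not counted. These comparisons each share a group with the main one, their intervals differ in length, and the difference between the counts was not tested. Of stages 14, 16, 18 and 20 only stage 20 has the column ending rr, while stages 23, 26, 30 and 33 all have it. Stage and column ending are therefore mixed in the comparison of the late with the early neurula.

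The consistent models, 1582 upward and 735 downward, were chosen on the 4 compared libraries alone. Their values at stages 14, 16, 30 and 33 took no part in that choice. The filter shapes these sets too. Of those that also passed limma, 555 of 1296 upward models reached 5 TPM in the early tailbud libraries only. Of the downward ones, 177 of 660 reached it in the late neurula libraries only. Over all models tested these were 959 and 426, and such models were not set apart in the counts that follow. Both late tailbud values lay above both early neurula values in 1523 of the 1582 (96.3%), beside 37% of all models tested, and below them in 4. Both lay below in 706 of the 735 (96.1%), beside 44.1% of all models tested, and above in 3. The median difference between late tailbud and early neurula was 2.42 for the upward, -2.28 for the downward and -0.12 for all models tested. In limma 1449 of the 1582 (91.6%) passed as higher and 692 of the 735 (94.1%) as lower, beside 27% higher and 32.8% lower over all models tested; this test takes its spread from all 8 libraries, the 4 compared ones included. These outer stages lie further apart in development than the compared ones. They also differ in the column ending: stages 30 and 33 carry rr, and stages 14 and 16 lack it. Models listed at 0 numbered 4491 and 3277 at stages 30 and 33, against 10367 and 9417 at stages 14 and 16. Stage and column ending therefore cannot be told apart in this comparison.

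**Figure D5:**
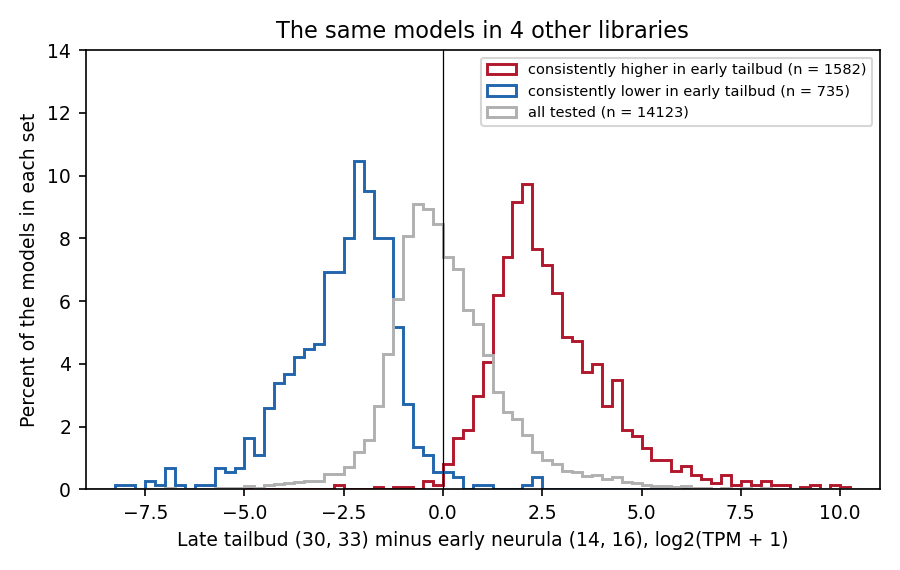
Distribution of the difference in log2(TPM + 1) between the late tailbud (stages 30 and 33) and the early neurula (stages 14 and 16), as a percentage of the 1582 consistently higher models (red), the 735 consistently lower models (blue) and all 14123 models tested (grey). The medians are 2.42, -2.28 and -0.12, and few models of the red and blue sets cross 0.

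After the early tailbud most rising models stayed within 2-fold, though a smaller share than of all models tested, while falling models declined more often. From the early to the late tailbud 1085 of the 1296 rising models (83.7%) stayed within 2-fold, 151 (11.7%) were at least 2-fold higher and 60 (4.63%) at least 2-fold lower. Of the 660 falling models, 441 (66.8%) stayed within 2-fold, 211 (32.0%) were at least 2-fold lower and 8 were at least 2-fold higher. Over all models tested, 91.6% stayed within 2-fold, 1.87% were at least 2-fold higher and 6.58% lower. Before the window, from the early to the late neurula, 407 rising models (31.4%) were already at least 2-fold higher, against 8.24% of all models tested, and 48 falling models (7.27%) at least 2-fold lower, against 0.821%. Both sets were chosen on the late neurula and early tailbud libraries that these values share, so they are given as a description.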

How the data were processed

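Poly(A)+ RNA of 18 whole-embryo libraries was measured by sequencing, 1 per stage. The authors deposited 1 table of TPM for 31357 gene models and 88 spike-in entries. Per the submitters' processing notes the tools included RSEM, Bowtie, Trimmomatic and CASAVA 1.8.2, with no roles; no genome build is named in the sources used here. TPM keeps no depth, so no counting intervals are given. Spike-in rows were dropped and each column was rescaled to 1000000. Exact zeros, which can be failed estimates, are given as listed at 0. Reads of near-identical gene copies cannot be told apart in this table.

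Stages were paired into groups by label. limma 3.58.1 (R 4.3.3) was fitted to log2(TPM + 1) of the 8 libraries from stage 14 to 33 as 4 group means (4 residual degrees of freedom, mean-variance trend, two-sided, Benjamini-Hochberg over 14123 models). Because a group holds 2 stages, its spread includes development, which the p-values take as error; no exact test of 2 libraries against 2 could pass 0.05. The code was tested on simulated data. Models were named as the 2 largest rises and 2 largest falls that passed limma, changed consistently and averaged at least 10 TPM in the higher group. Alternatives covered the value added before the logarithm, the filter, the scaling, the libraries fitted and single libraries left out. The comparison, groups and rules were chosen with earlier results of these data known.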

Additional observations from a re-analysis of the deposited data

How the results depend on the processing

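Leaving out 1 library at a time gave between 224 and 3767 models that passed limma (139 to 2402 higher, 85 to 1605 lower) and between 1055 and 2303 consistently higher and 581 and 1021 consistently lower models; the lone library left in a group is assumed to vary like the others. With the columns that carry the suffix rr alone 1229 passed (845 higher, 384 lower), in a fit of the 4 compared libraries 2234 (1051 lower) and in a fit of all 18 libraries 873 (741 and 132). Scaling to the spike-ins gave 900 (850 and 50), with 3289 and 258 consistent changes. With 5 added before the logarithm consistent changes numbered 911 and 414, and at 4-fold 461 and 116. A filter of 1 TPM gave 2700 higher calls, 2768 consistent rises and 2453 of those higher by limma in the late tailbud than in the early neurula, and no filter 2915 consistent rises; these settings admit low models. The 4 named models passed with the same direction in all 21 alternatives. Rescaling without the 2 models that are on in some libraries only, and the restrictions of the history groups and sizes of change by level, were chosen after seeing the data. No paired analysis was possible because each stage has 1 library and the labels carry no replicate numbers. Depth is unknown, so models near 0 cannot be said to be absent.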

Other observations

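The number of models that together hold 50% of the gene-model total was 350 at stage 23 and 342 at stage 26, against 350 at stage 18 and 410 at stage 20. The 10 most abundant models held 8.22% and 7.69% at stages 23 and 26, against 12.3% and 9.94% at stages 18 and 20, and the single highest value was 18453 and 14750 TPM, against 35470 and 33430 TPM. Models at 1 TPM or more numbered 20245 and 20860 in the early tailbud libraries, against 18031 and 19231 in the late neurula libraries. Of all models tested, 4556 (32.3%) had both early tailbud values above both late neurula values, 5327 (37.7%) had both below and 4240 (30%) overlapped.

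Models between the maternal and non-maternal classes numbered 244 among the rising (18.8%) and 83 among the falling (12.6%), against 15% of all models tested. Those that rose had a median of 14.2 and 16.8 TPM at stages 23 and 26, against 2.96 and 5.94 TPM at stages 18 and 20, and those that fell 9.84 and 6.68 TPM, against 23.1 and 20.7 TPM.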
